A study of Mus musculus with 23 samples.

Results

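The genes described here are 45 cell cycle genes in macrophages sorted from mouse spleen and bone marrow, grouped by the phase they serve: 8 genes of the G1/S transition, 16 of DNA replication and 21 of mitosis. They were chosen by name, and all 45 are in both deposited expression tables, which hold 22524 and 25700 genes. Messenger RNA was sequenced from 23 libraries, with 1000 cells sorted for each, from C57BL/6 mice. The 12 libraries of the vavCre table came from day-7 pups and formed 4 groups of 3. These were spleen macrophages labelled WT (RPM_d7_WT) or vavCre (RPM_d7_vavCre), and bone marrow macrophages labelled WT (BMM_d7_WT) or vavCre (BMM_d7_vavCre). The 11 libraries of the other table were all from spleen. RPM_d7_Spic_WT (3 libraries) and RPM_d7_Spic_KO (2 libraries) came from day-7 pups, and RPM_TAM_WT (2 libraries, genotype label WT) and RPM_TAM_CreERT2 (4 libraries, genotype label TAM_CreERT2) from adults. vavCre names a Cre recombinase under the Vav promoter, active in blood-forming cells and their progeny, and CreERT2 names a Cre that tamoxifen activates. No label names a floxed allele, a promoter for CreERT2 or a dose, and TAM is not spelled out. The series describes the few macrophage-like cells that remain when Pparg, the gene of a lipid-sensing nuclear receptor, is deficient.

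A cell enters the cycle when D-type cyclins (Ccnd1, Ccnd2 and Ccnd3) activate CDK4 and CDK6, which releases E2F factors such as E2F1. Cyclin E (Ccne1 and Ccne2) with CDK2 then starts S phase, and the inhibitors p21 (Cdkn1a) and p27 (Cdkn1b) restrain these kinases. E2F factors turn on the genes of the MCM helicase and of nucleotide supply, while the genes of mitosis are induced later, through promoter elements called CHR and CCAAT boxes. Resident macrophages of young mice can divide in place, and erythroblastic island macrophages of the marrow hold dividing erythroblasts on their surface.

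Promoter windows from RefSeq (GRCm38.p6, 250 bases before to 50 bases after a start) were given for 36 of the 45 members, 31 of them with 1 window. Each was searched on both strands for the CHR (TTTGAA or TTCGAA), the CCAAT box (CCAAT) and an E2F site (TTTCCCGC, TTTCGCGC, TTTGCCGC or TTTGGCGC). Overlapping E2F matches were each counted. A CHR match lay in 13 of 17 mitosis genes, 3 of 14 replication genes and 0 of 5 G1/S genes, against 21.7% of all 27025 genes with a window. An E2F match lay in 7 of 14 replication genes, 1 of 17 mitosis genes and 0 of 5 G1/S genes, against 2.60% of all genes. CCAAT lay in 15 of 17 mitosis genes, 10 of 14 replication genes and 2 of 5 G1/S genes, against 41.1%. The division between the phases had exceptions. Among them, Tk1, Rrm1, Rrm2 and Pcna had no E2F match, and Nusap1 and Birc5 had no CHR or CCAAT match. Of the members with a window, Mcm6 had the most E2F matches and Top2a the most CHR matches. The 3 upstream sequences below are examples of the division, and each belongs to a gene whose values follow. They are the 250 bases before the start of Mcm6 (chr1:128359706-128359955), Top2a (chr11:99024190-99024439) and Mki67 (chr7:135716380-135716629), all on the minus strand and written 5′ to 3′. Capitals mark every match, ATTGG being CCAAT read on the other strand and TTCAAA a CHR read on the other strand.
Mcm6: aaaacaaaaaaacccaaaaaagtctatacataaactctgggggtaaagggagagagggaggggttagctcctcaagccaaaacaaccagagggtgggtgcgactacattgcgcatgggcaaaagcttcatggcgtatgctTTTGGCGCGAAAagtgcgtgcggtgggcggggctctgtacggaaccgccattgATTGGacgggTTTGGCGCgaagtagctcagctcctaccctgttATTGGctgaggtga
Top2a: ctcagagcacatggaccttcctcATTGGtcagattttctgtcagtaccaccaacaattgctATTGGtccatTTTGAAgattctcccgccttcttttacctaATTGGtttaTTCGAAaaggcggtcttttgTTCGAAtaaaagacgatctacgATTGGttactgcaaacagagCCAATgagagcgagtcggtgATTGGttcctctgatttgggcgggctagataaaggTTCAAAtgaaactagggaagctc
Mki67: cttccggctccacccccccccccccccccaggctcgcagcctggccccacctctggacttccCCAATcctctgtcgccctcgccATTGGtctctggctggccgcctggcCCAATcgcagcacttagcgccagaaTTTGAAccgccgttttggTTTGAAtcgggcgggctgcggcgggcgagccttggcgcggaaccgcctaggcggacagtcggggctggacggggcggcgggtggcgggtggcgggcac
Mcm6 held 3 E2F matches, of which 2 overlap in TTTGGCGCGAAA, with 2 CCAAT boxes and no CHR. Top2a held 4 CHR and 6 CCAAT matches, and Mki67 held 2 CHR and 3 CCAAT matches, with no E2F match of these letters in either. A match describes the letters and was not tested as a binding site.

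Values are normalised read counts, scaled separately in the 2 tables, so levels are compared within a table only. The reads behind them numbered 4.26 to 21.7 M per library in the vavCre table and 0.693 to 6.29 M in the other, where RPM_TAM_CreERT2 replicate 2 was the shallowest. All 14 macrophage markers examined were above 0 in every library. Pparg itself lay between 1550 and 2124 in RPM_d7_WT and between 2496 and 4002 in RPM_d7_vavCre, and Spic between 1993 and 3110 in RPM_d7_Spic_WT and between 931 and 1236 in RPM_d7_Spic_KO. Counts over a whole gene do not check the loss of a part of it, and the deleted part is not given in the sources used here. In bulk libraries, fewer cells of a type and less RNA per cell cannot be told apart. No label says that replicates are separate animals, so p-values measure only the spread between these libraries.

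In day-7 spleen, 17 of the 45 cell cycle genes were lower in vavCre macrophages than in wild type, Ccnd2 the most, and the inhibitor Cdkn1a was higher. These 17 were lower (2.54% of the 15130 genes tested were lower) and 1 was higher (2.98% of genes), in limma-trend at an adjusted p under 0.05. DESeq2 called 5 more in spleen, Mcm2, Mcm4, Cdc6, Ccnb1 and Cdk1, all lower, and edgeR 1 more, Mcm2. Over all genes tested DESeq2 called 10.3% and edgeR 7.16%, against 5.52% in limma-trend. The change was negative on the log2 scale in 42 of 45, with a median of -0.79 against -0.02 over all genes tested. In 30 members all 3 vavCre libraries were below all 3 wild-type libraries, which held for 12.4% of all genes, and in 1 all were above (11.6% of all genes). Without single libraries the number of members called was 10 (without RPM_d7_WT replicate 1, 2 or 3), 9 (without RPM_d7_vavCre replicate 2), 12 (without RPM_d7_vavCre replicate 1) and 13 (without RPM_d7_vavCre replicate 3). The share of all genes called also fell in these fits, from 5.52% to between 3.57% (without RPM_d7_vavCre replicate 2) and 4.32% (without RPM_d7_vavCre replicate 1). The 8 members called without each library in turn were Cdkn1a, Ccnd2, Ccne1, Rrm2, Tk1, Mcm5, Top2a and Mki67.

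Marrow macrophages showed 19 members lower in vavCre (4.40% of genes tested were lower) and 1 higher (3.41% of genes). The log2 change was negative in 41 of 45, with a median of -0.77 against -0.04 over all genes. edgeR and DESeq2 called the same 20 members in marrow. They called 8.46% and 13.1% of all genes there, against 7.81% in limma-trend. The libraries of the 2 groups did not overlap for 22 members that were lower, against 10.9% of all genes, and for 1 that was higher (8.96% of all genes). Members lower in both tissues numbered 13, which is 76.5% of the 17 in spleen and 68.4% of the 19 in marrow, and the comparisons have no library in common. Without BMM_d7_vavCre replicate 3, the library with the lowest replication and mitosis means, 13 members were called, and without any other library 14 to 21. The share of all genes called was 6.33% without BMM_d7_vavCre replicate 3. With single libraries left out it ran from 5.97% to 7.39%, against 7.81% with all libraries. The 11 members called without each library in turn were Cdkn1a, Ccnd2, Tk1, Rrm2, Mcm2, Mcm3, Mcm4, Pcna, Top2a, Nusap1 and Mki67. In the test of the difference between the spleen and marrow changes, 0 of 45 members were called (0.119% of genes tested). At an unadjusted p under 0.05 were 2 members, against 935 of the 15130 genes tested. edgeR and DESeq2 also called 0 members.

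**Figure D1:**
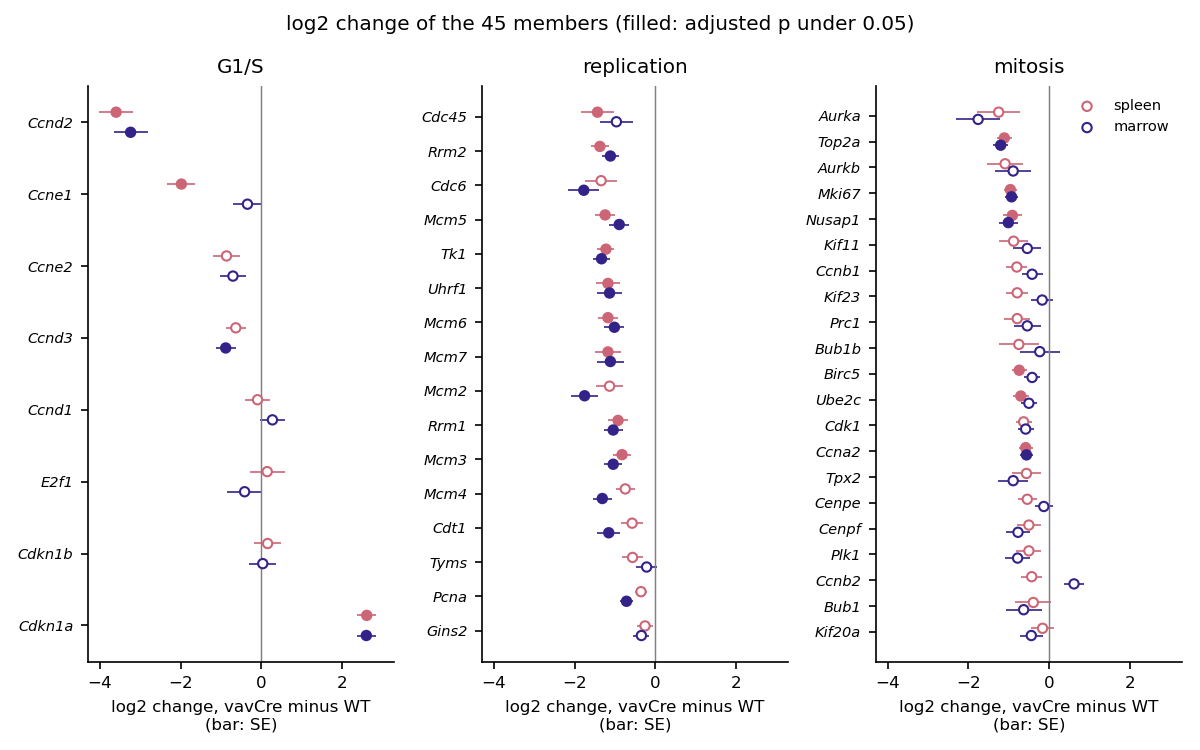
log2 change (horizontal axis, vavCre minus wild type, bar: SE) of each of the 45 members in spleen and marrow, by phase, with filled points for adjusted p under 0.05. Replication genes lie to the left of 0 in both tissues (16 of 16), Ccnd2 lies farthest to the left and Cdkn1a farthest to the right.

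Erythroid markers moved in the same direction in these libraries. Of 22 erythroid markers, 13 were lower in vavCre spleen (median log2 change -1.20, lowest -1.84) and 17 in vavCre marrow (median -1.45, lowest -2.43), and none was at 0 in any library of this table. Their summed level ran from 237028 to 349501 in RPM_d7_WT and from 123312 to 175262 in RPM_d7_vavCre. It ran from 242569 to 356211 in BMM_d7_WT and from 97627 to 140388 in BMM_d7_vavCre, so the groups did not overlap in either tissue. Of 14 erythroid markers other than globins, 7 were lower in spleen and 10 in marrow. Of 12 B cell markers 1 was lower in spleen and 2 in marrow, where their summed level ran from 4718 to 11773 in wild type and from 2095 to 3729 in vavCre. The summed macrophage markers overlapped in spleen (328421 to 372032 in wild type, 329296 to 379099 in vavCre) and by a narrow margin in marrow (238174 to 276690.0 and 232460.0 to 238330.0). Of the 14, 2 were higher and 2 lower in spleen, and 3 and 3 in marrow. Spic is in this list and was among those lower in spleen (log2 change -0.69, adjusted p = 0.00116 in limma-trend), and did not pass in marrow. Among the 10 T and NK cell markers, 1 was higher in each tissue, Cd4, whose level ran from 683 to 776 and from 2621 to 2966 in wild-type and vavCre spleen, and from 1422 to 2393 and from 5204 to 6141 in marrow. Their summed level, most of it Cd4, was apart in both tissues (811 to 1519 and 2643 to 3207 in spleen, 1478 to 2849 and 5208 to 6989 in marrow), while the median log2 change of the list was -0.81 and -2.19. The T cell receptor gene Cd3e was at most 30.6 in wild-type and 13.6 in vavCre spleen, and at most 34.2 in wild-type marrow and 0 in all 3 vavCre marrow libraries. None of 10 neutrophil precursor markers passed in limma-trend, and their summed level was apart in spleen (318 to 2431 and 2505 to 5466) and overlapped in marrow (1508 to 4224 and 1442 to 2081). The part of these other cells in the cell cycle values was not tested.

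**Figure D2:**
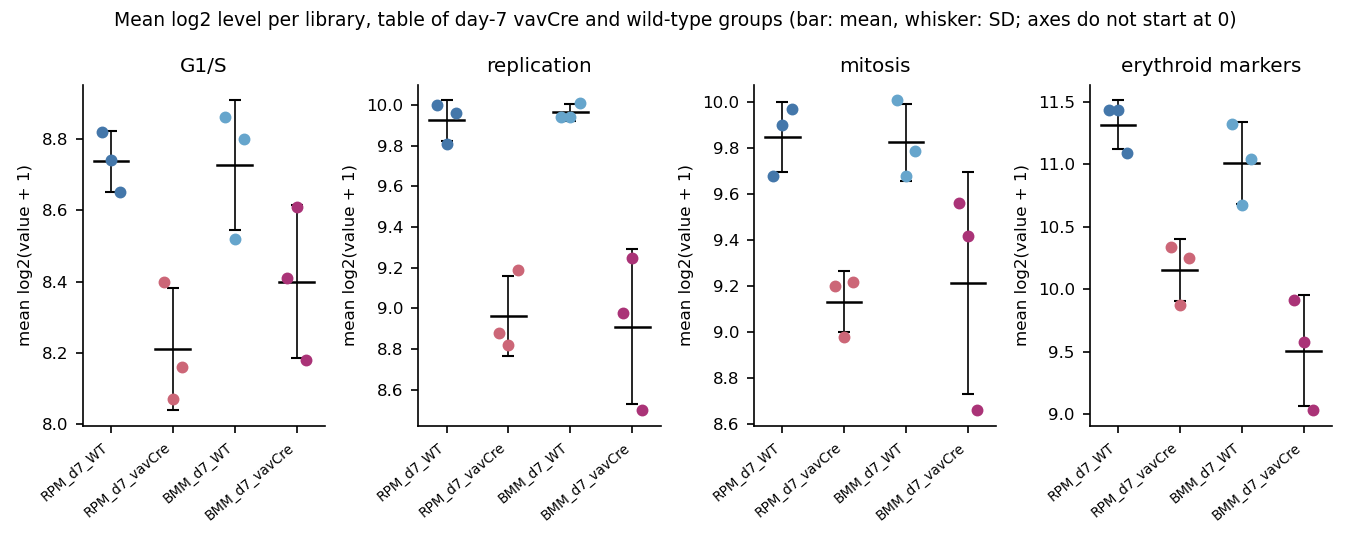
Mean log2(value + 1) of the G1/S, replication and mitosis genes and of the erythroid markers in each of the 12 libraries of the vavCre table (points), with group mean and SD. The replication means of the vavCre libraries (8.50 to 9.25) lie below all wild-type libraries (9.81 to 10.01), and the erythroid markers separate in the same way.

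Among the G1/S genes, Ccnd2 (chr6:127125162-127152193, minus strand), the gene of cyclin D2, had the largest fall. Its normalised read counts were 1393, 1448 and 1656 in RPM_d7_WT and 234, 134 and 57.9 in RPM_d7_vavCre. In marrow they were 756, 793 and 695 in wild type and 73.3, 136 and 47.5 in vavCre. Every vavCre library lay below every wild-type library in both tissues. The log2 change was -3.60 (SE 0.42, adjusted p = 1.1e-05) in spleen and -3.24 (SE 0.42, adjusted p = 4.4e-05) in marrow. Ccnd2 stayed called without each library in turn and in edgeR and DESeq2.

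The other D cyclins had smaller changes. Ccnd1 counts were 489.5, 377 and 420 in RPM_d7_WT and 519, 331 and 378 in RPM_d7_vavCre. In marrow Ccnd1 counts were 603, 536 and 379 in wild type and 808, 837.5 and 328 in vavCre. These groups overlapped, with log2 changes of -0.09 (SE 0.32, adjusted p = 0.961), which turned positive without RPM_d7_WT replicate 1 or RPM_d7_vavCre replicate 2, and 0.28 (SE 0.32, adjusted p = 0.690). Ccnd3 counts were 1140, 1048 and 1421 in RPM_d7_WT and 1033, 664 and 667 in RPM_d7_vavCre. In marrow Ccnd3 counts were 941, 963 and 1445 in wild type and 515, 835 and 491 in vavCre. Its groups did not overlap in either tissue, but only the marrow change passed (log2 change -0.88, SE 0.25, adjusted p = 0.0345). That call was lost without BMM_d7_WT replicate 3 (adjusted p = 0.166), BMM_d7_vavCre replicate 1 (0.110) or BMM_d7_vavCre replicate 3 (0.121).

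Per kb of exon, Ccnd2 made up 41.2% ± 2.40 (SD, n = 3) of the signal of the 3 D cyclins in RPM_d7_WT and 7.50% ± 3.25 in RPM_d7_vavCre. In marrow its share was 25.3% ± 2.15 in wild type and 4.05% ± 0.885 in vavCre. Cyclin D1 took the larger part of the remainder in marrow vavCre libraries, 62.4% ± 9.41, while Ccnd1 (45.6% ± 3.32) and Ccnd3 (46.9% ± 0.361) were close in spleen vavCre libraries. The summed D cyclin signal per kb was 387 ± 37.3 and 192 ± 53.1 in wild-type and vavCre spleen, and 314 ± 5.80 and 219 ± 80.2 in marrow, so the shares shifted while the sum was also lower.

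**Figure D3:**
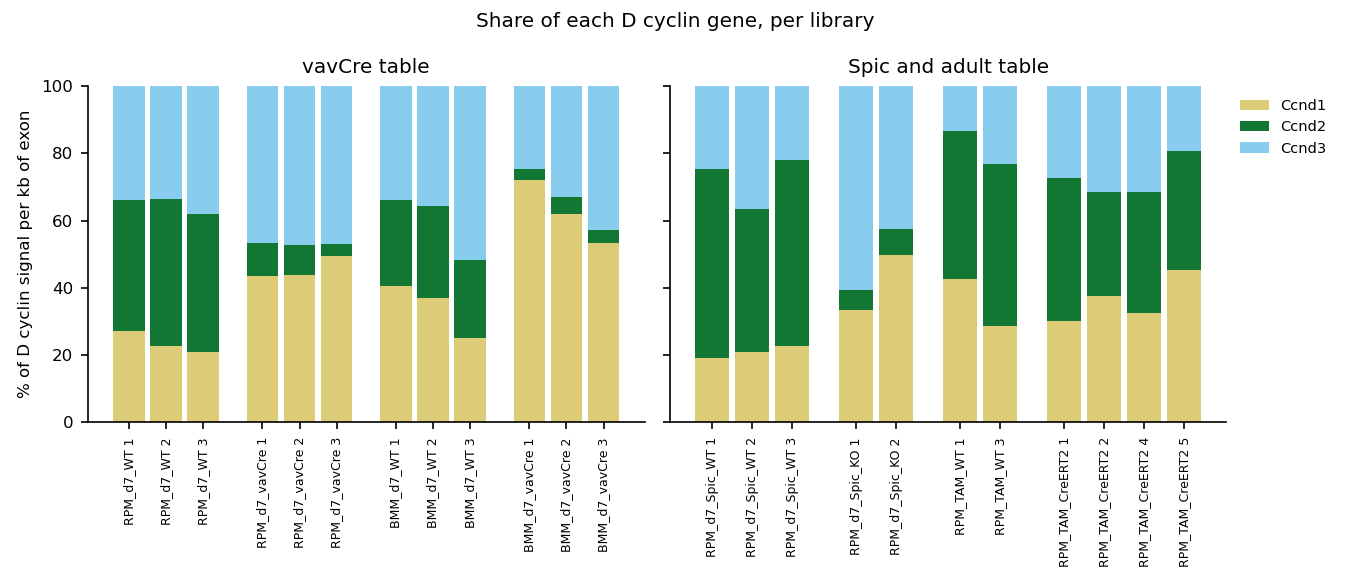
Share of Ccnd1, Ccnd2 and Ccnd3 in the summed D cyclin signal per kb of exon (vertical axis, percent), 1 bar per library, for both tables. The Ccnd2 band is narrow in the vavCre and Spic_KO libraries, and in RPM_TAM_CreERT2 libraries it is 30.8% to 42.5%.

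Cdkn1a (chr17:29090976-29100727, plus strand), which encodes p21, a CDK inhibitor and p53 target, was the only member called higher in either tissue. Its counts were 146, 173 and 130 in RPM_d7_WT and 1008, 843 and 916 in RPM_d7_vavCre. In marrow Cdkn1a counts were 175, 151 and 149.5 in wild type and 978, 1151 and 812.5 in vavCre. The lowest vavCre library was above every wild-type library in both tissues. The fold was 6.16 in spleen (log2 change 2.62, SE 0.24, adjusted p = 8.7e-07) and 6.11 in marrow (log2 change 2.61, SE 0.24, adjusted p = 1.1e-06). The other inhibitor gene, Cdkn1b, was at 352 and 395 (means of wild type and vavCre) in spleen and 429.8 and 451 in marrow, with log2 changes of 0.16 (adjusted p = 0.915) and 0.04 (adjusted p = 0.983). Per kb, Cdkn1a thus held 35.5% ± 3.31 of the signal of this pair in RPM_d7_WT and 75.0% ± 6.23 in RPM_d7_vavCre, and in marrow 33.3% ± 7.88 and 73.5% ± 11.8.

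Ccne1 (chr7:38097984-38107534, minus strand), the gene of cyclin E1, fell in spleen. Its counts were 357, 527 and 318 in RPM_d7_WT and 95.1, 84.8 and 119 in RPM_d7_vavCre, with no overlap (log2 change -1.98, SE 0.35, adjusted p = 0.00114). In marrow Ccne1 counts were 358, 197 and 435 in wild type and 205, 251 and 294 in vavCre, which overlapped (log2 change -0.34, SE 0.35, adjusted p = 0.654). The difference between the tissues' changes was -1.64 (SE 0.49), the lowest value among the members, and it did not pass (adjusted p = 0.441). Ccne2 means were 445 and 238 in wild-type and vavCre spleen (log2 change -0.86, adjusted p = 0.168) and 490.3 and 294 in marrow (-0.70, adjusted p = 0.230). E2f1 changed by 0.15 (adjusted p = 0.944) and -0.41 (adjusted p = 0.659). The 8 G1/S genes thus had 2 lower and 1 higher in each tissue, with medians of -0.36 and -0.38.

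**Figure D4:**
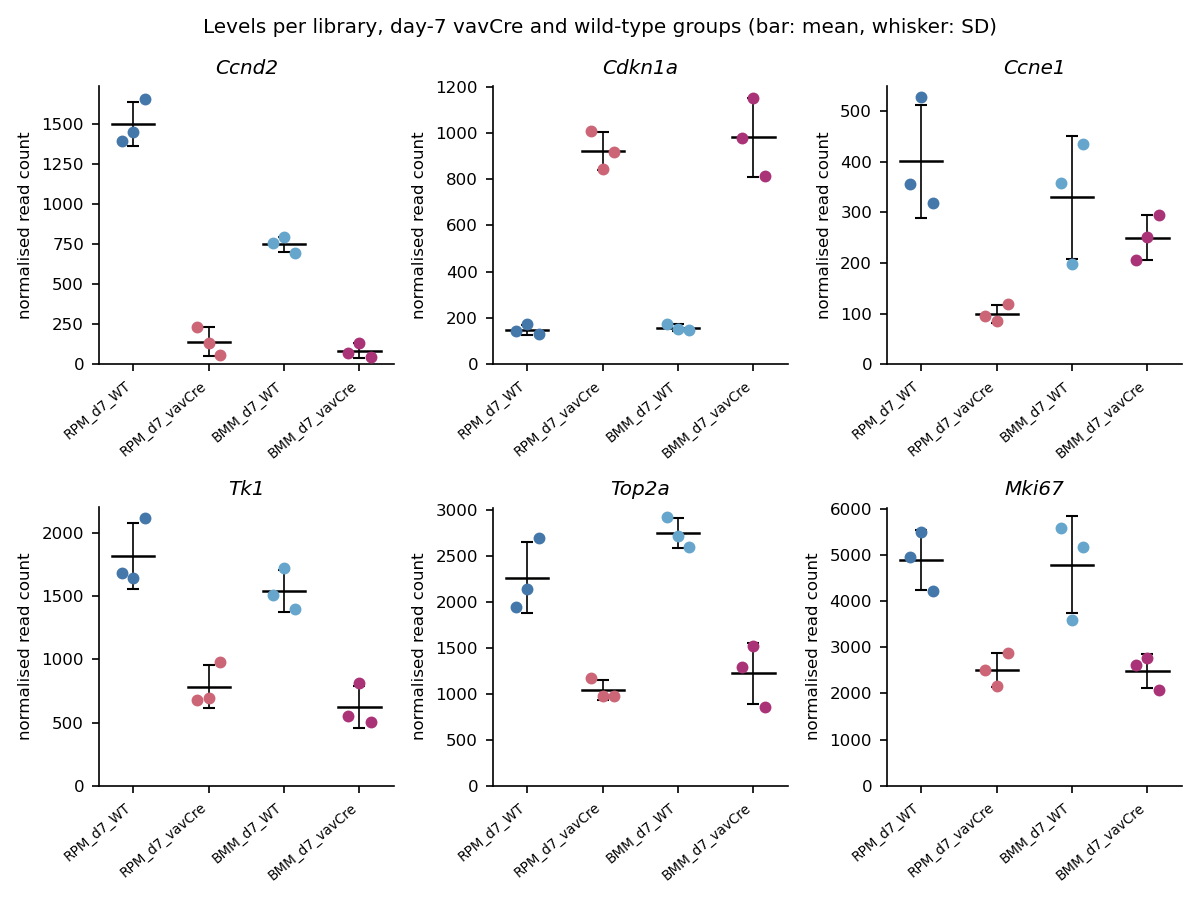
Normalised read counts (vertical axis, from 0) of Ccnd2, Cdkn1a, Ccne1, Tk1, Top2a and Mki67 in each of the 12 libraries of the vavCre table (points), with group mean and SD. Only Ccne1 in marrow has wild-type and vavCre libraries that overlap, and Cdkn1a is the only gene of the 6 that is higher in vavCre.

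Most replication genes had lower levels in vavCre libraries, and the number that passed differed by tissue. In spleen 9 of 16 passed as lower (median log2 change -1.15, range -1.43 to -0.25) and in marrow 13 of 16 (median -1.08, range -1.77 to -0.21), none was higher, and all 16 had a negative change in each tissue. The highest values were those of 2 genes. Gins2, a GINS subunit (-0.25 and -0.34), and Tyms, which makes dTMP (-0.56 and -0.21), passed in neither tissue. Of the genes that make DNA precursors, Tk1 (thymidine kinase) had counts of 1684, 1640 and 2115 in RPM_d7_WT and 680.0, 693.5 and 978 in RPM_d7_vavCre. In marrow Tk1 counts were 1504, 1723 and 1394 in wild type and 550.5, 809.7 and 505 in vavCre. No vavCre library reached a wild-type library, and the log2 changes were -1.22 (SE 0.21, adjusted p = 8.6e-04) and -1.33 (SE 0.21, adjusted p = 3.4e-04).

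Rrm2, the regulated subunit of ribonucleotide reductase, had counts of 1757, 1897 and 2421 in RPM_d7_WT and 792, 614 and 967 in RPM_d7_vavCre. In marrow Rrm2 counts were 1824, 1469 and 1500 in wild type and 829, 899 and 534 in vavCre. The groups were apart in both tissues (log2 change -1.37, SE 0.22, adjusted p = 4.5e-04 in spleen, and -1.11, SE 0.22, adjusted p = 0.00292 in marrow). Rrm1, the large subunit, had counts of 1751, 1787 and 1834 in RPM_d7_WT and 818, 983 and 1051 in RPM_d7_vavCre. In marrow Rrm1 counts were 2057, 2198 and 1716 in wild type and 745, 1657 and 722 in vavCre, so vavCre replicate 2 lay close to the wild-type range. Its log2 changes were -0.92 (SE 0.24, adjusted p = 0.0285) and -1.04 (SE 0.24, adjusted p = 0.0103). The spleen call was lost without any of the 6 libraries (adjusted p = 0.0509 to 0.112), and the marrow call without BMM_d7_vavCre replicate 1 (0.0538) or replicate 3 (0.0544).

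The MCM genes encode the replicative helicase. Mcm6 counts were 2005, 1227 and 1603 in RPM_d7_WT and 665, 604 and 858 in RPM_d7_vavCre (log2 change -1.17, SE 0.25, adjusted p = 0.00741). In marrow Mcm6 counts were 1569, 1389 and 1475 in wild type and 1082, 779 and 464 in vavCre (log2 change -1.01, SE 0.25, adjusted p = 0.0180). The groups were apart in both tissues, but the spleen call was lost without RPM_d7_WT replicate 1 (adjusted p = 0.0597), and in marrow Mcm6 missed the threshold with BMM_d7_WT replicate 1 (0.0614) or 3 (0.0531), or BMM_d7_vavCre replicate 3 (0.0867), left out. Mcm4 counts were 1020, 729.6 and 805 in RPM_d7_WT and 479, 477 and 560 in RPM_d7_vavCre, without overlap (log2 change -0.74, SE 0.23, adjusted p = 0.0768). In marrow Mcm4 counts were 766, 946 and 1065 in wild type and 389, 275 and 471 in vavCre, and the fall passed (log2 change -1.31, SE 0.23, adjusted p = 0.00136). All 6 MCM genes listed were negative in both tissues, from -1.24 (Mcm5) to -0.74 (Mcm4) in spleen and from -1.75 (Mcm2) to -0.89 (Mcm5) in marrow.

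The remaining helicase genes and the loading factor Cdt1 varied in how far single libraries carried them. Mcm2 had means of 979 and 443 in wild-type and vavCre spleen (log2 change -1.13, adjusted p = 0.0542) and 1295 and 436 in marrow (-1.75, adjusted p = 0.00235, held without each library). Mcm5 had -1.24 in spleen (adjusted p = 0.00464, held without each library) and -0.89 in marrow (adjusted p = 0.0371, held only without BMM_d7_vavCre replicate 2). Mcm3 fell in marrow by 1.04 on the log2 scale (adjusted p = 0.00794, held without each library). In spleen Mcm3 had -0.82 (adjusted p = 0.0431), and leaving out RPM_d7_WT replicate 1 (0.219) or 3 (0.107), or RPM_d7_vavCre replicate 2 (0.201) or 3 (0.112), ended that call. Mcm7 had -1.17 in spleen (adjusted p = 0.0400, but 0.0555 to 0.168 without any 1 library) and -1.11 in marrow, where its groups overlapped (adjusted p = 0.0417, ended by leaving out BMM_d7_WT replicate 1 at 0.184 or 3 at 0.120, or BMM_d7_vavCre replicate 1 at 0.0930 or 3 at 0.183). Cdt1 fell in marrow (-1.15, adjusted p = 0.0147, but 0.0526 without BMM_d7_WT replicate 1) and had -0.57 in spleen (adjusted p = 0.337). Uhrf1, which maintains DNA methylation at replication forks, had -1.17 (adjusted p = 0.0261) and -1.13 (adjusted p = 0.0241). Uhrf1 was no longer called in spleen once RPM_d7_WT replicate 1 or 2 or RPM_d7_vavCre replicate 1 or 2 was left out (0.0725 to 0.119). The same held in marrow for BMM_d7_WT replicate 1 or 3 and BMM_d7_vavCre replicate 1 or 3 (0.0582 to 0.112).

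Loading and firing factors and the sliding clamp complete the replication class. Cdc6, an origin loading factor, had means of 423 and 179 in wild-type and vavCre spleen (log2 change -1.34, adjusted p = 0.0516) and 406 and 115 in marrow (-1.77, adjusted p = 0.00725, lost without BMM_d7_WT replicate 3 at 0.0532). Cdc45, a helicase subunit, had means of 216 and 80.3 in spleen (-1.43, adjusted p = 0.0480, but 0.0670 to 0.220 without any 1 of the 6 libraries) and 257 and 131 in marrow (-0.96, adjusted p = 0.185). Pcna, the sliding clamp, was the most abundant member per kb in all 4 groups, from 1434 per kb in RPM_d7_WT to 801 per kb in BMM_d7_vavCre. Its counts were 3598, 3062 and 3667 in RPM_d7_WT and 2647, 2331 and 3177 in RPM_d7_vavCre, which overlapped (log2 change -0.35, SE 0.15, adjusted p = 0.254). In marrow Pcna counts were 3022, 3060 and 3292 in wild type and 1966, 2239 and 1566 in vavCre, which did not overlap (log2 change -0.71, SE 0.15, adjusted p = 0.00562).

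Some mitosis genes were lower in each tissue. In spleen 6 of 21 passed as lower (median log2 change -0.74, range -1.25 to -0.16) and in marrow 4 of 21 (median -0.56, range -1.76 to 0.62), and none was higher. Top2a, the topoisomerase that untangles replicated chromosomes, had counts of 1953, 2146 and 2700 in RPM_d7_WT and 1175, 983 and 980 in RPM_d7_vavCre. In marrow Top2a counts were 2928, 2725 and 2600 in wild type and 1294, 1520 and 860 in vavCre. The groups were apart, with log2 changes of -1.11 (SE 0.19, adjusted p = 9.5e-04) and -1.20 (SE 0.19, adjusted p = 3.9e-04). Mki67, the gene of the proliferation marker Ki-67, had counts of 4946, 5504 and 4221 in RPM_d7_WT and 2500, 2151 and 2873 in RPM_d7_vavCre. In marrow Mki67 counts were 5586, 3596 and 5176 in wild type and 2621, 2759 and 2078 in vavCre. These were also apart, with a fold of 1.95 in spleen (adjusted p = 0.00117) and 1.91 in marrow (adjusted p = 0.00165).

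Nusap1, a spindle protein, had counts of 833, 1168 and 1304 in RPM_d7_WT and 658.5, 440.0 and 661 in RPM_d7_vavCre. In marrow Nusap1 counts were 971, 717 and 927 in wild type and 504.5, 355 and 441 in vavCre. Neither tissue overlapped (log2 change -0.91, SE 0.24, adjusted p = 0.0281, and -1.01, SE 0.24, adjusted p = 0.0113), and in spleen Nusap1 failed the threshold when RPM_d7_WT replicate 2 (0.116) or 3 (0.141), or RPM_d7_vavCre replicate 2 (0.166), was left out. Ube2c, the ubiquitin-conjugating enzyme of the anaphase-promoting complex, had counts of 2240, 2557 and 2779 in RPM_d7_WT and 1573, 1464 and 1600 in RPM_d7_vavCre. In marrow Ube2c counts were 2055, 2084 and 2033 in wild type and 1853, 1773 and 939 in vavCre. Only the spleen change passed (log2 change -0.70, SE 0.20, adjusted p = 0.0447), and it was lost without any of the 6 libraries (adjusted p = 0.0677 to 0.163), while marrow had -0.50 (SE 0.20, adjusted p = 0.152). Ccnb2, a B-type cyclin, had the only positive value of the class, 0.62 in marrow (means 813 and 1171, adjusted p = 0.171), against -0.43 in spleen (means 1358 and 1008, adjusted p = 0.465). Aurka, a spindle kinase, had the lowest values, -1.25 (adjusted p = 0.251) and -1.76 (adjusted p = 0.0543), and passed in neither.

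Birc5, which encodes survivin of the chromosomal passenger complex, had means of 1749 and 1056 in wild-type and vavCre spleen (log2 change -0.74, adjusted p = 0.0229) and 1485 and 1109 in marrow (-0.42, adjusted p = 0.216). Leaving out RPM_d7_WT replicate 2 (0.126) or 3 (0.0685), or RPM_d7_vavCre replicate 2 (0.157), ended the spleen call of Birc5. Ccna2, the gene of cyclin A2, passed narrowly in both tissues (-0.58, adjusted p = 0.0477, and -0.56, adjusted p = 0.0441). The spleen call of Ccna2 was lost without any 1 library (0.0552 to 0.201), and leaving out BMM_d7_WT replicate 1 (0.166) or 3 (0.102), or BMM_d7_vavCre replicate 3 (0.181), ended its marrow call. The kinase gene Cdk1 did not pass in limma-trend in either tissue, though its groups were apart in both and DESeq2 called it in spleen (-0.63, adjusted p = 0.0842, and -0.58, adjusted p = 0.0896). The remaining mitosis genes, Ccnb1, Plk1, Aurkb, Bub1, Bub1b, Cenpe, Cenpf, Kif11, Kif20a, Kif23, Prc1 and Tpx2, passed in neither tissue in limma-trend, and of these DESeq2 called Ccnb1 in spleen.

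Cell cycle genes outside the 45 were read from 3 further lists. Of 18 further G1/S genes tested, 2 were lower in spleen and 3 in marrow, of 33 further replication genes 8 and 7, and of 47 further mitosis genes 2 and 2, with none higher. Over all genes tested 2.54% were lower in spleen and 4.40% in marrow, and the mitosis counts of this further list are near those shares. Skp2, which targets p27 for degradation, changed by -1.63 in spleen (adjusted p = 3.4e-04) and had -0.67 in marrow (adjusted p = 0.122). Cdk6, the partner of D cyclins, had -0.66 in spleen (adjusted p = 0.0929) and fell in marrow by 1.34 on the log2 scale (adjusted p = 5.4e-04). E2f2 had -0.76 in spleen (adjusted p = 0.178) and -1.43 in marrow (adjusted p = 0.00437). Tipin, of the fork protection complex, and Dut, the dUTPase, passed in both tissues (-1.26 and -1.19, adjusted p = 0.00101 and 0.00169, and -1.14 and -1.40, adjusted p = 0.00824 and 0.00137). Fbxo5, an inhibitor of the anaphase-promoting complex, also passed in both (-1.64, adjusted p = 0.0350, and -2.05, adjusted p = 0.00636). Chaf1b, a histone chaperone, and Ect2, which acts in cytokinesis, passed in marrow (-2.43, adjusted p = 0.00489, and -1.49, adjusted p = 0.00548), and the condensin gene Smc2 in spleen (-0.81, adjusted p = 0.0177).

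Few members passed between tissues within a genotype, where 3.89% (wild type) and 3.50% (vavCre) of all genes tested passed. Between wild-type spleen and marrow 0 of 45 members were called (3.89% of genes tested). An unadjusted p under 0.05 was found for 4 members, against 2398 of the 15130 genes tested. edgeR called 0 and DESeq2 1, Tyms (log2 change 0.90 in limma-trend, adjusted p = 0.0576). Over all genes DESeq2 called 7.58% here. Ccnd2 was at a mean of 1499 in RPM_d7_WT and 748 in BMM_d7_WT without overlap (log2 change 1.00, SE 0.42, adjusted p = 0.234). Between vavCre spleen and marrow 1 member was called lower (0.820% of genes tested), Ccne1 (log2 change -1.32, SE 0.35, adjusted p = 0.0409). That call was lost without RPM_d7_vavCre replicate 1 (adjusted p = 0.115), 2 (0.125) or 3 (0.0642) or BMM_d7_vavCre replicate 2 (0.0851) or 3 (0.108).

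In the Spic_KO spleen libraries 3 of 45 members passed as lower (2.48% of the 16650 genes tested were lower) and 0 as higher (1.47% of genes). At an unadjusted p under 0.05 were 13 members, against 3094 of the 16650 genes. Ccnd2 counts were 202, 207 and 229 in RPM_d7_Spic_WT and 21.0 and 24.8 in RPM_d7_Spic_KO, far apart (log2 change -3.16, SE 0.37, adjusted p = 2.9e-05), and the call held without each library. Its share of D cyclin signal per kb was 51.3% ± 7.68 (n = 3) and 6.79% ± 1.28 (n = 2). Mcm6 counts were 179, 163 and 131 in RPM_d7_Spic_WT and 34.5 and 17.6 in RPM_d7_Spic_KO, also without overlap (log2 change -2.62, SE 0.50, adjusted p = 0.00420, but 0.0547 without RPM_d7_Spic_KO replicate 2). Ccne1 counts were 48.8, 41.0 and 42.7 in the controls and 12.0 and 0 in the knockout, a 0 that allows up to 3 reads. The log2 change of Ccne1 was -3.64 (SE 0.98, adjusted p = 0.0401), a value that depends on the pseudocount. It was not called without RPM_d7_Spic_WT replicate 1 (0.149), 2 (0.113) or 3 (0.123), without RPM_d7_Spic_KO replicate 2 (0.411), or in edgeR and DESeq2. With RPM_d7_Spic_KO replicate 1 left out 11 members were called, and with RPM_d7_Spic_KO replicate 2 left out 1, each with the remaining library assumed to vary like those of the other groups. Over all genes the share called was 3.95% with both, 12.0% without replicate 1 and 1.84% without replicate 2.

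The proliferation genes Mki67 and Top2a overlapped between these groups, while Tk1, Pcna and Ube2c were lower in the knockout without overlap. Mki67 counts were 390, 486 and 307.5 in RPM_d7_Spic_WT and 271 and 591 in RPM_d7_Spic_KO, the knockout libraries lying on either side of the control range (log2 change 0.05, SE 0.47, adjusted p = 1.00). Top2a counts were 107, 238 and 159 in the controls and 129 and 268.5 in the knockout, which overlapped (0.22, SE 0.46, adjusted p = 0.896). Cdkn1a counts were 11.9, 43.1 and 3.88 in the controls and 7.01 and 24.3 in the knockout, which also overlapped (0.02, SE 0.87, adjusted p = 1.00). Replication genes in the knockout included Tk1 (126, 143 and 154 against 94.6 and 43.5), Rrm2 (229, 311 and 157 against 161 and 44.0), Rrm1 (166, 220 and 192 against 190.2 and 63.6) and Pcna (354, 482 and 355 against 294 and 155), none of which passed. Mcm4 (72.55, 87.2 and 77.0 against 82.1 and 59.0) overlapped. Of the mitosis genes, Ube2c (238, 316 and 281 against 173 and 51.7) and Nusap1 (76.6, 117 and 75.4 against 80.1 and 26.4) were lowest in knockout replicate 2 (adjusted p = 0.0529 and 0.493 in limma-trend), and DESeq2 called Ube2c lower. In this comparison DESeq2 called 4 of 45 members, against 1834 of the 13119 genes it tested. edgeR with TMM called 2 members, against 809 of 12939 genes. With either tool, members were called less often than genes at large. Ccnd1 (34.6, 51.15 and 46.6 against 59.6 and 80.7) and Ccnd3 (83.2, 167 and 85.1 against 202 and 128) did not pass.

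By class the median log2 changes in Spic_KO were -0.29 (G1/S), -0.77 (replication) and -0.91 (mitosis), against 0 over all genes tested. Members whose libraries did not overlap numbered 22 lower and 7 higher, against 19.4% and 14.8% of all genes. E2f1 was among the higher ones (means 24.9 in the controls and 78.7 in the knockout, adjusted p = 0.256) and Bub1, a spindle checkpoint kinase, among the lower (8.59, 25.9 and 17.5 against 0 and 0.517, the latter 1 read, adjusted p = 0.0614 in limma-trend, and called by DESeq2). In the same libraries 7 of 14 macrophage markers were lower and none higher, their summed level running from 40029 to 57400.1 in the controls and from 25289.6 to 26766 in the knockout. Spic, the gene named by the knockout label, is part of that sum and among those lower (log2 change -1.16, adjusted p = 0.0319 in limma-trend). Of 22 erythroid markers 2 were lower and 1 higher. Of 11 B cell markers tested 2 were higher, with summed levels of 593 to 873 in the controls and 568 to 655 in the knockout. None of 9 T and NK cell markers or 8 neutrophil precursor markers tested passed in limma-trend. The summed T and NK cell level was apart (59.2 to 77.9 and 86.4 to 244), while the median log2 change of that list was -0.33. The part of all these cells in the cell cycle values was not tested.

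**Figure D5:**
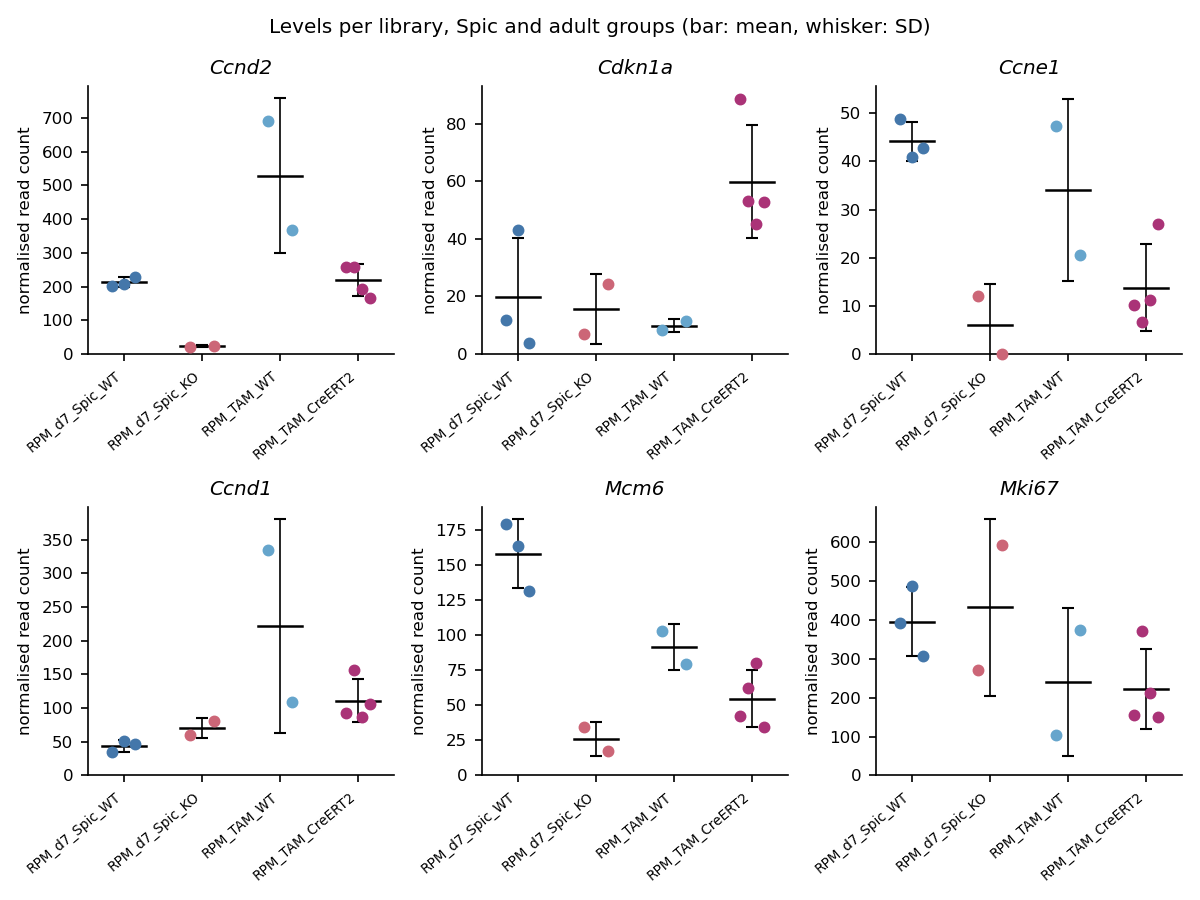
Normalised read counts (vertical axis, from 0) of Ccnd2, Cdkn1a, Ccne1, Ccnd1, Mcm6 and Mki67 in each of the 11 libraries of the Spic and adult table (points), with group mean and SD, whiskers ending at 0. Ccnd2 and Mcm6 are lower in both RPM_d7_Spic_KO libraries than in any other library of the table, with Mcm6 of RPM_d7_Spic_KO replicate 1 (34.5) just under RPM_TAM_CreERT2 replicate 5 (34.7).

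In adults, 0 of 45 members were called between RPM_TAM_CreERT2 and RPM_TAM_WT (0.144% of genes tested). An unadjusted p under 0.05 was found for 4 members, against 1244 of the 16650 genes tested. edgeR called 0 members. DESeq2 called 1, Ccnd2, and 1.23% of all genes tested. Ccnd2 counts were 691 and 367 in RPM_TAM_WT and 259, 257, 193 and 166 in RPM_TAM_CreERT2, with no overlap (log2 change -1.23, SE 0.35, adjusted p = 0.300 in limma-trend). Its share of D cyclin signal per kb was 46.0% ± 2.90 (n = 2) and 36.1% ± 4.82 (n = 4). Cdkn1a counts were 8.17 and 11.6 in RPM_TAM_WT and 88.6, 53.2, 45.2 and 52.65 in RPM_TAM_CreERT2, also without overlap (log2 change 2.46, SE 0.83, adjusted p = 0.437). These were among 3 members whose CreERT2 libraries were all lower (7.60% of all genes) and 2 whose libraries were all higher (6.07%).

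Other G1/S genes overlapped in adults. Ccnd1 counts were 334 and 110 in RPM_TAM_WT and 92.0, 157, 87.5 and 107 in RPM_TAM_CreERT2 (log2 change -0.82, SE 0.47, adjusted p = 0.713). Ccne1 counts were 47.4 and 20.6 in RPM_TAM_WT and 10.2, 6.65, 11.3 and 27.0 in RPM_TAM_CreERT2 (-1.30, SE 0.93, adjusted p = 0.760). Mki67 counts were 104.5 and 373 in RPM_TAM_WT and 156, 370, 213 and 150.2 in RPM_TAM_CreERT2, so the wild-type pair spanned the other group (0.07, SE 0.45, adjusted p = 0.979). Mcm6 counts were 103 and 79.6 against 42.0, 62.05, 80.0 and 34.7, which overlapped by 1 library (-0.79, SE 0.48, adjusted p = 0.727). The class medians were -0.11 (G1/S), -0.25 (replication) and -0.28 (mitosis). In these libraries 2 of 22 erythroid markers, Hba-a1 and Hba-a2, were higher in CreERT2, and the summed erythroid level ran from 118148 to 171785 in RPM_TAM_WT and from 196472 to 359056 in RPM_TAM_CreERT2. Of 14 erythroid markers other than globins none passed in limma-trend (median log2 change -0.14). Their summed level overlapped (1502 to 3161 in RPM_TAM_WT and 1285 to 2482 in RPM_TAM_CreERT2). No T and NK, B cell or neutrophil precursor marker passed in limma-trend. The summed T and NK cell level was apart and higher in CreERT2 (226 to 271 and 508 to 1042), while the median log2 change of that list was 0.11. The summed B cell level was apart and lower (1173 to 1324 and 677 to 875), with a median log2 change of -0.70. The part of these cells in the cell cycle values was not tested.

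Between adult and day-7 wild-type spleen libraries (RPM_TAM_WT against RPM_d7_Spic_WT), 1 member passed as higher (1.56% of genes tested), Ccnd1, and 0 as lower (1.86% of genes). Ccnd1 counts were 34.6, 51.15 and 46.6 at day 7 and 334 and 110 in adults, without overlap (log2 change 2.11, SE 0.49, adjusted p = 0.0186). The call was lost without RPM_d7_Spic_WT replicate 1 (adjusted p = 0.0884) or 3 (0.0565) or RPM_TAM_WT replicate 1 (0.545). Without RPM_TAM_WT replicate 3, 3 members were called. Ccnd2 was also higher in both adult libraries (691 and 367 against 202, 207 and 229, log2 change 1.24, SE 0.37, adjusted p = 0.0691). Ccnd2 was called higher by edgeR with TMM (log2 change 1.34, adjusted p = 0.0183) and DESeq2 (1.43, adjusted p = 0.00113), with the replicate block (1.23, adjusted p = 0.00956) and under further alternatives. Over all genes tested edgeR with TMM called 5.23%, DESeq2 10.1% and the replicate block 12.2%, against 3.42% in limma-trend without a block. Tk1 was lower in both adult libraries (33.5 and 53.9 against 126, 143 and 154), with a log2 change of -1.70 (SE 0.61, adjusted p = 0.147). Members whose libraries did not overlap numbered 15 lower and 6 higher, against 19.2% and 18.4% of all genes. The replication and mitosis medians were -0.47 and -0.60 and the G1/S median 0.40. Age, the TAM label and the genotype label of the controls differ together between these groups and cannot be told apart. Of 14 macrophage markers 5 were lower in the adult libraries, of 11 B cell markers tested 4 were higher, and of 22 erythroid markers 2 were higher. Of 9 T and NK cell markers tested 1 was higher, Cd3e (0 to 0.971 at day 7 and 12.7 to 23.7 in adults), and their summed level was apart (59.2 to 77.9 and 226 to 271). Their part in these values was not tested.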

How the data were processed

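Libraries were made from 1000 sorted cells with oligo-dT priming, PCR and Nextera XT tagmentation, per the labels' protocols. The submitters' processing notes list the aligner STAR, edgeR and the GRCm38 build and give no version. The authors' tables hold a signal scaled per library, taken here as normalised read counts. No header names the unit, and division by 1 factor per library gave whole reads (within 0.1 read, up to 500 reads) for 96.6% to 100% of values. All sample columns were used. Groups came from the labels.

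Genes reaching a value of 1 in 2 or more libraries (15130 and 16650) were tested on log2(value + 1), which understates changes of low genes, with limma 3.58.1 in R 4.3.3 (limma-trend, robust, 1 mean per group, all libraries of a table). Benjamini-Hochberg adjustment ran over all genes tested and adjusted p under 0.05 was a call. All 45 members passed the filter. The values are not counts, so the limma branch of the planned design was used, and edgeR 4.0.16 and DESeq2 1.42.0 were run on recovered reads as alternatives. Others were pseudocounts of 0.1 and 5, no filter, a filter of 10, library weights, the compared groups only, a replicate block, a log2 change of at least 1, each library left out in turn and, chosen after seeing the data, the knockout and CreERT2 libraries numbered 2 left out together. The script was tested on simulated data.

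Values in every library are given, per phase, for the 3 members with the smallest adjusted p in either vavCre comparison, the 2 with the highest mean, and those called in the other table. Up to 3 genes per further cell cycle list were named by smallest adjusted p. Members outside that rule were named after their values were seen. The members and lists were chosen with earlier results of these data known. Exon lengths and gene coordinates (1-based, GRCm38) are from GENCODE vM21. Whether reads were counted by strand is not given in the sources used here, and reads of overlapping genes may be shared. Values of single B cell markers in the Spic_KO comparison are not reported here.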

Additional observations from a re-analysis of the deposited data

Results flagged for a closer look

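All 45 members were examined for a library far from the rest in RPM_TAM_CreERT2, the only group of 4 or more libraries, and 4 were found. Chance flags about 1 in 20 groups. Mcm5, an MCM helicase gene, stood at a normalised read count of 268.1 (121 reads) in replicate 2, against 45.43 to 80.91 in the other 3 libraries. Birc5 (survivin) stood at 149.0 in replicate 5 against 85.61 to 88.59. Kif23, a kinesin of cytokinesis, stood at 113.0 in replicate 5 against 30.67 to 39.51, and Prc1, which bundles spindle microtubules, at 259.4 in replicate 5 against 8.864 to 32.93.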

How the results depend on the processing

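Counts of members called under other settings are given where they moved by over 1.5 times. In spleen vavCre against wild type (18), a log2 change of at least 1 left 11, and leaving out single libraries gave 9 to 13. In marrow (20) leaving out libraries gave 13 to 21. Between wild-type tissues (0), a filter of 10, the compared groups only and DESeq2 each gave 1, and left-out libraries 0 to 1. Between vavCre tissues (1), no filter, library weights, the compared groups only and the replicate block each gave 0, DESeq2 gave 2 and left-out libraries 0 to 2. In Spic_KO (3) a filter of 10 gave 5 and left-out libraries 1 to 11. In CreERT2 (0) DESeq2 gave 1. In adult against day-7 wild type (1), a filter of 10, edgeR with TMM, edgeR with RLE and DESeq2 each gave 2, library weights gave 3, the compared groups only gave 7, the replicate block 4, left-out libraries 0 to 3, and leaving out the knockout and CreERT2 libraries numbered 2 gave 4. Over all genes tested, the share called in adult against day-7 wild type was 3.42% in the main fit and 5.73% with a filter of 10. It was 7.54% with library weights, 12.3% with the compared groups only, 12.2% with the replicate block and 9.55% without the libraries numbered 2. Between vavCre tissues DESeq2 called 8.11% of all genes, against 3.50% in the main fit. In Spic_KO the filter of 10 gave 6.74%, against 3.95%. The cause of these moves was not tested. In the difference between the vavCre changes 0 members were called under every setting.

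With a replicate block, 14 members were called in spleen, 18 in marrow, 4 in Spic_KO and 0 in the wild-type tissue comparison and the difference. Deviations of same-numbered libraries from their group means had correlations from -0.04 to 0.07. With so few libraries per group, values near 0 cannot show whether same-numbered libraries share an animal. For RPM_TAM_CreERT2 against RPM_TAM_WT no block could be fitted, since these groups share only 1 number.

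Members that were not called changed sign as follows. Ccnd1 in spleen vavCre was 0.01 without RPM_d7_WT replicate 1 and 0.05 without RPM_d7_vavCre replicate 2, and -0.27 to 0.05 over all single libraries left out. Cdkn1a in Spic_KO was -0.04 with a pseudocount of 5, -0.31 in edgeR with TMM, -0.23 in edgeR with RLE and in DESeq2, -0.74 with the replicate block, -0.81 to 0.85 with single libraries left out and -0.81 without the libraries numbered 2. Mki67 in Spic_KO was -0.12 with the replicate block, -0.51 to 0.61 with single libraries left out and -0.51 without the libraries numbered 2. Mki67 in CreERT2 was -0.06 with library weights, -0.15 and -0.08 in edgeR with TMM and RLE, -0.07 in DESeq2, -0.85 to 0.98 with single libraries left out and -0.21 without the libraries numbered 2. No called member changed sign. Depth limits RPM_TAM_CreERT2 most, with 0.693 to 1.67 M reads per library.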
